A study of Mus musculus with 6 samples.

Results

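The genes described here are the SMAD proteins and their regulators: the receptor-activated SMADs Smad1, Smad5, Smad2 and Smad3, the common partner Smad4, the inhibitory Smad7, the corepressors Ski and Skil, and the ubiquitin ligases Smurf1 and Smurf2. They were taken as named genes, by symbol, and all 10 were found among the 25759 gene identifiers of the expression table. RNA was sequenced from 6 mouse libraries of adaptive regulatory T cells, called aTreg. The name stands for CD4 T cells that switch on the transcription factor Foxp3 when they are activated in the presence of TGF-beta. The 3 wild type (WT) libraries came from C57BL/6 mice with a Foxp3GFP reporter. The 3 BMPR1a-deficient libraries came from BMPR/CD4cre mice with the same reporter, in which a Cre recombinase under control of Cd4 removes the BMP receptor in T cells. Mice of both groups were 8 to 12 weeks old. Their lymph node and spleen cells were cultured together for 3 days with IL-2 (10 ng/ml), the mitogen ConA (2 ug/ml) and TGF-beta (3 ng/ml), and CD4+Foxp3GFP+ cells were sorted, so both groups had been exposed to TGF-beta and neither is an unstimulated state. The sort on Foxp3GFP by itself does not tell cells that switched on Foxp3 in culture from cells that held it before. The Cd4 promoter drives Cre in developing T cells, so the deletion is not limited to regulatory T cells, and the labels name no Cre in the WT mice. The labels do not say how many mice gave each library or whether the libraries are separate cultures, so p-values here measure only how these libraries vary among themselves, which could be technical variation.

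SMADs carry signals of the TGF-beta superfamily from the membrane to the nucleus. Type I receptors for TGF-beta and activin phosphorylate SMAD2 and SMAD3, those for BMPs phosphorylate SMAD1, SMAD5 and SMAD9, and each of these then binds SMAD4 and enters the nucleus. SMAD7 and the SMURF ligases act against active receptors, SKI and SKIL (also called SnoN) bind SMAD complexes on DNA and hold target genes silent, and Smad7 and Skil are themselves textbook targets of the pathway. In T cells, SMAD3 binds an enhancer of Foxp3 and takes part in its induction by TGF-beta.

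SMAD complexes contact DNA at the short element GTCT (AGAC on the other strand) and at GC-rich sequences such as GGCGCC. RefSeq start sites of build GRCm38.p6 gave promoter sequence for 6 of the 10 genes: Smad1, Smad3, Smad5, Ski, Smurf1 and Smurf2. The genes Skil, Smad2, Smad4 and Smad7 were not matched. The 250 bases before the RefSeq start were searched, and they are printed for the 3 matched genes whose levels differed most between the groups, on the strand of the gene, with each match to GTCT, AGAC or GGCGCC in capitals. The windows lie at chr4:155222536-155222785 (Ski), chr9:63757995-63758244 (Smad3) and chr11:106920716-106920965 (Smurf2), all on the minus strand. GENCODE places the start of Ski further upstream than RefSeq does, so 57 bases of its window lie inside the GENCODE gene, and only the 193 bases before both starts (chr4:155222593-155222785) are printed. Windows of Smad1, Smurf1 and Smad5, which were searched but not printed, also reach into the GENCODE gene.
Ski: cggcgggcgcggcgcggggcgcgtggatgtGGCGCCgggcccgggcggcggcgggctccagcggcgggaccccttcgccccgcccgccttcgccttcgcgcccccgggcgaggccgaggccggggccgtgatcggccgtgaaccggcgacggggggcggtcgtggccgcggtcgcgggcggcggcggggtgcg
Smad3: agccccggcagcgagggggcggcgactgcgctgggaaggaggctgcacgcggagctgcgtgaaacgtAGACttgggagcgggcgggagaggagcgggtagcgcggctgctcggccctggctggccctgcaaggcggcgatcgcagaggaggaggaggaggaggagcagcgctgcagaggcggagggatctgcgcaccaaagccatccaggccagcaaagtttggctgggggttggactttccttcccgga
Smurf2: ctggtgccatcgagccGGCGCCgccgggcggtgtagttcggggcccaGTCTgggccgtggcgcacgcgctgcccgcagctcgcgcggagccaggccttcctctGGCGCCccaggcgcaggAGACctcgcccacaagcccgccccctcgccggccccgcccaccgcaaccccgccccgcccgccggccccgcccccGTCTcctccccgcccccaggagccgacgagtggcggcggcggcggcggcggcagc
Over its full 250 bases, the Ski window is the richest in G and C of the printed genes, at 87.6%. Smurf2 was at 82.0% and Smad3 at 69.2%, against a median of 52.4% over 32851 promoter windows of the same length. The full Ski window held 1 GGCGCC and 0 matches to GTCT on either strand. Smurf2 held 2 GGCGCC and 3 GTCT, and Smad3 held 1 GTCT and 0 GGCGCC. Matches were not limited to genes whose levels differed. Among genes whose groups overlapped, Smurf1 held 3 GTCT and 0 GGCGCC, and Smad1 held 0 of each. Smad5 windows held 1 or 2 GTCT, and the one at chr13:56702802-56703051 held 1 GGCGCC. Over all windows, 82.9% had at least 1 GTCT on either strand and 9.59% had GGCGCC, which reads the same on both strands. Those shares are not matched for G and C content, so they are no fair background for windows as GC-rich as these. The palindrome GTCTAGAC, 2 GTCT elements back to back, was in 0.167% of all windows and in 0 of the 8 windows of these 6 genes (Smad5 has several). These are matches of letters and not measured binding sites.

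FPKM, the unit of the table, is fragments per kilobase of transcript scaled to the mapped fragments of a library, so levels of different genes can be set side by side. Steps in the low values gave about 29700000 to 37700000 fragments per library. At that depth the members were covered by about 484 (Smad3) to 24560 (Skil) fragments in a library, so the spread between libraries is wider than counting error. Bmpr1a, the targeted receptor gene, was at 1.39, 2.34 and 1.31 FPKM in WT and 0.439, 0.720 and 0.691 in BMPR1a-deficient cells, lower in all 3 libraries as labelled (log2 fold change -0.71, SE 0.195, limma adjusted p = 0.183). The summed level of 8 general T cell markers was 3593 to 3719 FPKM in WT and 3335 to 3539 in deficient libraries, and that of the 6 CD4 regulatory T cell markers 848 to 897 and 883 to 985. Markers of other cells were present at lower sums: B cell genes at 28.1 to 54.0 and 38.8 to 54.1 FPKM, macrophage and dendritic cell genes at 22.8 to 109 and 13.99 to 94.6, neutrophil genes at 1.38 to 24.4 and 6.78 to 129, CD8 genes at 32.03 to 41.8 and 37.9 to 68.4, and NK cell genes at 5.61 to 9.36 and 3.09 to 8.36. Erythroid and platelet genes summed to 1.15 to 1.92 and 0.782 to 3.19 FPKM, and stromal and endothelial genes to 43.0 to 57.2 and 40.0 to 52.9, with 5 of these 6 under 1 FPKM in every library. Under 1 FPKM in every library were also 5 of 10 macrophage and dendritic, 4 of 5 NK, 4 of 6 neutrophil and 1 of 8 B cell markers, and no gene of these marker lists passed the test between groups. Outside the lists, genes known from B cells did rise in deficient libraries: Igha from 6.98 to 10.8 FPKM up to 19.5 to 23.0, Ighg3 from 1.22 to 1.51 up to 3.72 to 4.32, Tnfrsf13c from 3.24 to 4.01 up to 9.07 to 10.1, Cd40 from 3.08 to 5.30 up to 9.62 to 10.9 and Cd72 from 36.5 to 45.8 up to 72.0 to 73.7. Nkg7, a gene of cytotoxic and NK cells, rose from 55.1 to 80.8 FPKM up to 179 to 201. The limma adjusted p of these genes lay between 0.0142 (Tnfrsf13c) and 0.0496 (Cd40), and of the 6 fits without 1 library the call held in 2 for Tnfrsf13c and Nkg7, 1 for Cd72 and Ighg3 and 0 for Cd40 and Igha. The immunoglobulin segment Ighj4 was at 34991 to 53947 FPKM in WT and is listed at 0 in all 3 deficient libraries. Small RNA genes also switched between a high mean and 0, as mt-Tt (2068 FPKM in WT, 0 in deficient cells) and Snord16a (0 and 754). The Ighj4 values are therefore not read as a level of B cell RNA. The 7 genes from Igha to Ighj4 were chosen after their values were seen. They may not include every called gene known from other cells. The part of other cells in the differences of the SMAD genes and their regulators was not tested. BMPR1a-deficient replicate 1 stood apart: its 13 mitochondrially encoded mRNAs averaged -3.43 on the log2 scale relative to the WT mean, against -0.20 in each of the other deficient libraries. In a sorted bulk sample, fewer cells of a type and less RNA per cell cannot be told apart.

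Skil and Ski, the corepressors, were the most abundant members in deficient aTreg and lay above WT in all 3 libraries, while Smad3 lay below WT in all 3. No member passed the threshold of an adjusted p under 0.05 over all genes (limma on log2(FPKM + 1), 0 of 10, and no other tool was run). Over all 13413 genes tested, 143 passed (1.07%), with 0.746% higher and 0.321% lower in deficient cells. Skil came nearest, with 149 genes ahead of it by p. At an unadjusted limma p under 0.05 there were 4 members (Skil, Ski, Smad3 and Smurf2), where 15.2% of all genes tested reached that level. FPKM of the groups did not overlap for 4 members that were higher in deficient cells (Skil, Ski, Smad7 and Smurf2), beside 15.9% of all genes, and for 2 that were lower (Smad3 and Smad4), beside 10.4%. The other 4, Smad1, Smad2, Smad5 and Smurf1, overlapped. The median log2 fold change of the members was 0.00, against 0.04 over all genes tested, with 5 positive and 5 negative.

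**Figure D1:**
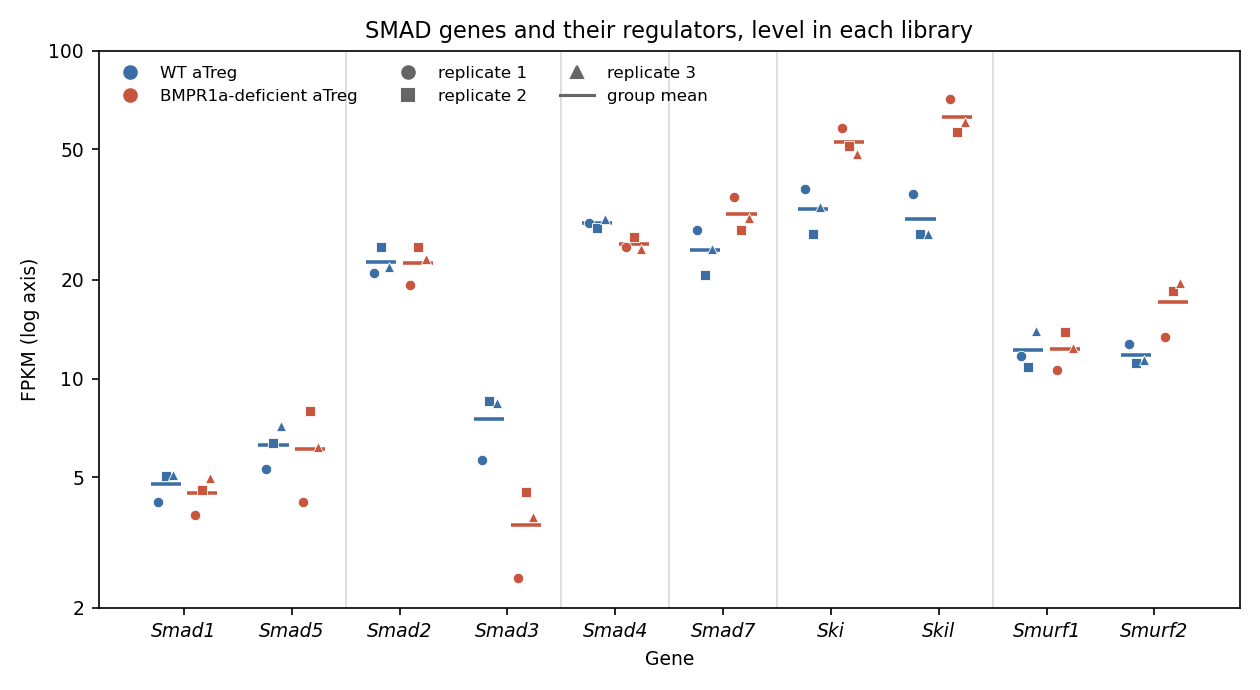
FPKM on a log axis for each gene, with 1 point per library (blue WT, red BMPR1a-deficient, symbols for replicates) and a line at each group mean, ordered from receptor-activated SMADs on the left to ubiquitin ligases on the right. Skil and Ski reach 48.4 to 71.3 FPKM in deficient cells, above every WT value, and Smad3 is at 2.46 to 4.53, below every WT value.

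The BMP-activated SMADs were among the least abundant members, and their values in the groups overlapped. Smad1 (ENSMUSG00000031681, chromosome 8, 79338395 to 79399518 in GRCm38) was at 4.21, 5.05 and 5.09 FPKM in WT and 3.84, 4.58 and 4.98 in BMPR1a-deficient cells, which overlap. Smad5 (ENSMUSG00000021540, chromosome 13, 56703010 to 56742377) was at 5.29, 6.37 and 7.17 FPKM in WT and 4.22, 7.95 and 6.17 in deficient cells, so the deficient libraries lay on both sides of the WT range. In WT these levels are at the 21.5th and 27.0th percentile of tested protein-coding genes. Their 95% intervals for the log2 fold change were -0.39 to 0.23 for Smad1 and -0.60 to 0.48 for Smad5, so the interval of Smad5 is the wider of the pair. The log2 fold changes were -0.08 and -0.06, and without BMPR1a-deficient replicate 1 they were 0.0026 and 0.15. Smad9, the third BMP-activated SMAD, was no higher than 0.0127 FPKM in any library, and the inhibitory Smad6 was no higher than 0.195, both below the level tested. The ratio of Smad5 to Smad1 within a library was 1.31 ± 0.0854 in WT and 1.36 ± 0.333 in deficient cells (SD, n = 3 each, exact permutation p = 1.0).

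Of the TGF-beta-activated pair, the groups overlapped for Smad2 and were apart for Smad3. Smad2 (ENSMUSG00000024563, chromosome 18, 76241580 to 76310963) was at 20.9, 25.3 and 21.9 FPKM in WT and 19.3, 25.3 and 23.2 in deficient aTreg. Its log2 fold change was -0.01 with a 95% interval from -0.34 to 0.32, and without BMPR1a-deficient replicate 1 it was 0.09. Smad3 (ENSMUSG00000032402, chromosome 9, 63646767 to 63757994) was at 5.66, 8.57 and 8.42 FPKM in WT and 2.46, 4.53 and 3.78 in deficient cells. Every deficient library was below every WT library, and deficient cells averaged 47.5% of WT (7.55 ± 1.64 and 3.59 ± 1.05 FPKM, SD, n = 3). On the log2(FPKM + 1) scale the difference was -0.91 (SE 0.229, 95% interval -1.46 to -0.35), which did not pass the threshold (limma adjusted p = 0.157). It kept this sign in all 20 alternative fits, with adjusted p between 0.0475 and 0.479.

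The lowest Smad3 value in each group came from its replicate 1, and the lowest deficient value from the library with few mitochondrial transcripts. Without that library the log2 fold change of Smad3 was -0.71 (limma adjusted p = 0.162). Smad2 and Smad3 share signal inputs, so their ratio within a library shows the balance of the pair without any scaling between libraries. The ratio of Smad3 to Smad2 was 0.271, 0.339 and 0.385 in WT and 0.128, 0.179 and 0.163 in deficient aTreg. All 3 deficient ratios were below all WT ratios, with a log2 difference of -1.08. The exact two-sided permutation p was 0.1, the smallest that 3 against 3 libraries allow (0.15 adjusted over the 6 ratios computed). Smad3 made up 18.1% ± 2.16 of the summed FPKM of the 4 receptor-activated SMADs in WT and 9.63% ± 1.24 in deficient cells, while Smad2 made up 55.1% ± 3.36 and 61.7% ± 2.62 (SD, n = 3). Smad1 held 11.6% ± 0.409 and 12.3% ± 1.24, and Smad5 15.2% ± 1.46 and 16.4% ± 2.31. The sum of the 4 was 41.3 ± 4.72 FPKM in WT and 36.7 ± 6.38 in deficient cells. BMP-activated against TGF-beta-activated SMADs (Smad1 plus Smad5 to Smad2 plus Smad3) stood at 0.366 ± 0.0346 and 0.402 ± 0.0269, with overlapping values (SD, n = 3, exact permutation p = 0.2).

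**Figure D2:**
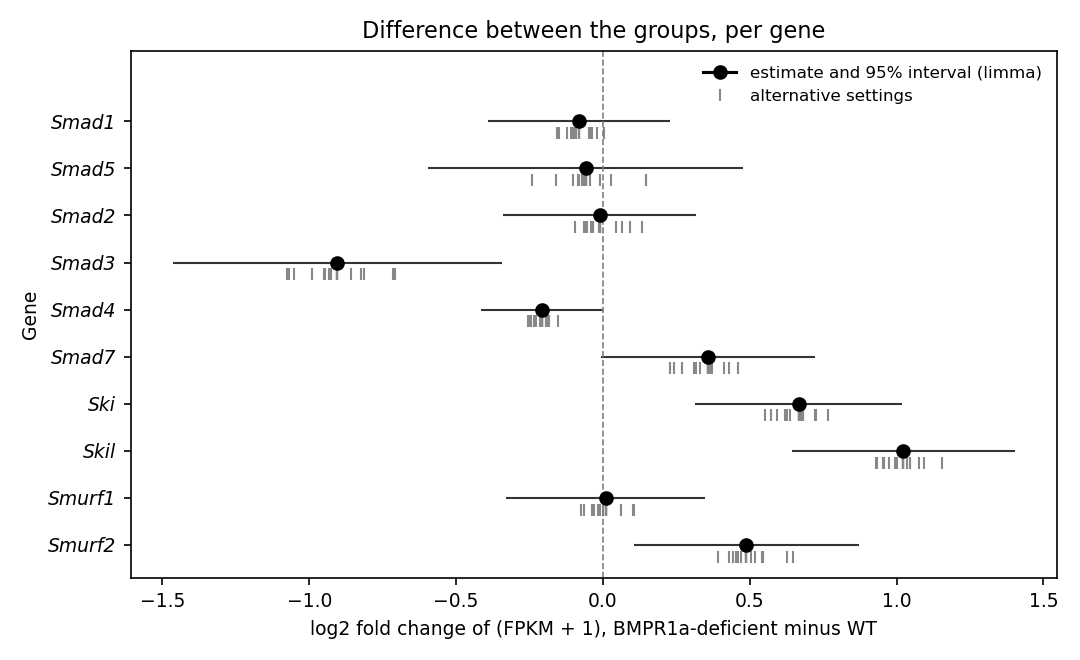
Log2 fold change of FPKM + 1, BMPR1a-deficient minus WT, for each gene (point), its 95% interval from limma (line) and its values under the alternative settings (grey ticks). The intervals of Skil, Ski, Smurf2 and Smad3 leave out 0 before adjustment for all genes tested. The ticks of these 4 genes, and those of Smad4 and Smad7, stay on 1 side of 0.

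Smad4, the partner shared by both branches, varied least among the members. It (ENSMUSG00000024515, chromosome 18, 73639009 to 73703780) was at 29.8, 28.9 and 30.7 FPKM in WT and 25.1, 27.1 and 24.8 in deficient aTreg. The coefficient of variation was 3.10% in WT and 4.79% in deficient cells, against 21.7% and 29.2% for Smad3. The groups did not overlap, yet deficient cells still averaged 86.2% of WT (log2 fold change -0.21, 95% interval -0.42 to 0.00, limma adjusted p = 0.330). Smad7, which binds activated type I receptors and brings SMURF ligases to them, leaned the other way. Smad7 (ENSMUSG00000025880, chromosome 18, 75367529 to 75395935) was at 28.4, 20.8 and 24.8 FPKM in WT and 35.8, 28.5 and 31.0 in deficient cells. The lowest deficient value and the highest WT value differed by little, 28.47 against 28.44, and the log2 fold change was 0.36 (95% interval -0.01 to 0.72, limma adjusted p = 0.337). Set against Smad4 in the same library, Smad7 stood at 0.954, 0.718 and 0.807 in WT and 1.42, 1.05 and 1.25 in deficient aTreg. Smad7 was thus the less abundant of the pair in every WT library and the more abundant in every deficient one (log2 difference 0.59, exact two-sided permutation p = 0.1). Because Smad7 was higher and Smad4 lower in every deficient library, the ratios had to separate. The permutation p therefore adds nothing to those differences.

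The corepressors gave the largest positive differences among the members. Skil (ENSMUSG00000027660, chromosome 3, 31095058 to 31122577) was at 36.6, 27.6 and 27.5 FPKM in WT and 71.3, 56.6 and 60.7 in deficient aTreg. Even the lowest deficient library was well above the highest WT library, and the means of 30.6 ± 5.23 and 62.9 ± 7.57 FPKM (SD, n = 3) stood 2.06-fold apart. The log2 fold change of 1.02 (SE 0.155, 95% interval 0.64 to 1.40) had an adjusted p of 0.0520 in limma, just outside the threshold. It was positive in all 20 alternatives (0.93 to 1.15) and passed in 4 of them, with adjusted p from 0.00919 to 0.238 over the alternatives. The 4 were a pseudocount of 0.1 (limma adjusted p = 0.0485), robust eBayes (0.0373), array weights (0.00919) and a test of protein-coding genes only (0.0175). Leaving out any 1 of the 6 libraries gave no pass (limma adjusted p between 0.0644 and 0.238), and without BMPR1a-deficient replicate 1 it was 0.93 (limma adjusted p = 0.0693).

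Ski (ENSMUSG00000029050, chromosome 4, 155154075 to 155222592), the founding member of the same family, was at 37.7, 27.7 and 33.4 FPKM in WT and 58.2, 51.4 and 48.4 in deficient cells. Its groups were also apart, with a deficient mean 1.60-fold the WT mean and a log2 fold change of 0.67 (SE 0.144, 95% interval 0.31 to 1.02, limma adjusted p = 0.112). Array weights alone among the 20 alternatives brought Ski past the threshold (limma adjusted p = 0.0217, range 0.0217 to 0.368). In WT the 2 corepressors were equally abundant or Ski was ahead, with Ski to Skil ratios of 1.03, 1.002 and 1.22. In deficient aTreg Skil was the more abundant in each library, and the ratio was 0.816, 0.907 and 0.797 (log2 difference -0.36, exact two-sided permutation p = 0.1).

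The 2 SMURF ligases, HECT-type enzymes that mark SMADs and receptors for degradation, differed from each other. Smurf1 (ENSMUSG00000038780, chromosome 5, 144876495 to 144965847) was at 11.7, 10.9 and 13.97 FPKM in WT and 10.6, 13.8 and 12.4 in deficient aTreg, with a log2 fold change of 0.01 (95% interval -0.33 to 0.35). Smurf2 (ENSMUSG00000018363, chromosome 11, 106820066 to 106920715) was at 12.8, 11.1 and 11.4 FPKM in WT and 13.41, 18.4 and 19.5 in deficient cells. Its deficient libraries were all above WT, but replicate 1 by only a narrow margin (log2 fold change 0.49, SE 0.156, limma adjusted p = 0.245). Leaving out that replicate gave 0.65 and took Smurf2 past the threshold (limma adjusted p = 0.0468, range over alternatives 0.0109 to 0.596). The ratio of Smurf2 to Smurf1 was 1.09, 1.03 and 0.819 in WT and 1.26, 1.33 and 1.58 in deficient cells, without overlap (log2 difference 0.51, exact two-sided permutation p = 0.1).

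**Figure D3:**
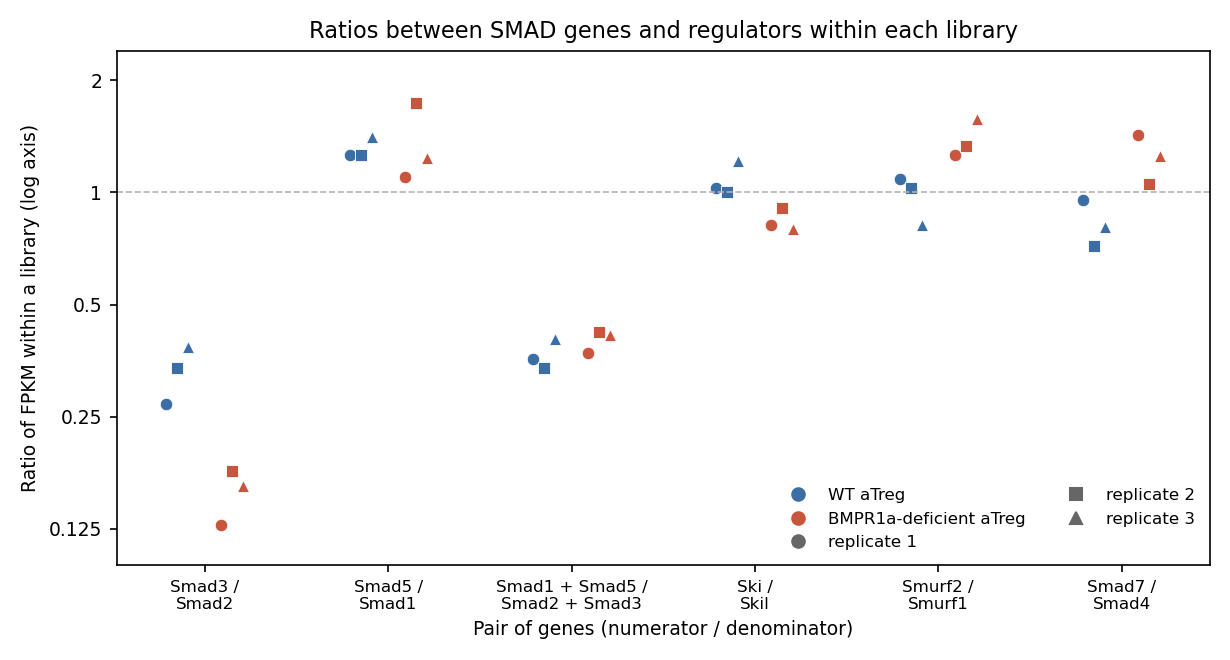
Ratio of FPKM of 2 genes, or of 2 sums of genes, within each library on a log axis (blue WT, red BMPR1a-deficient, symbols for replicates). Smad3 to Smad2 (0.128 to 0.179 against 0.271 to 0.385) and Ski to Skil are lower in all 3 deficient libraries, Smurf2 to Smurf1 and Smad7 to Smad4 are higher in all 3, and the other 2 ratios overlap.

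The order of the members shifted between the groups at both ends. In WT, Ski, Skil and Smad4 shared the top 3 ranks in each library, with means of 33.0, 30.6 and 29.8 FPKM whose ranges overlapped, then came Smad7 and Smad2 (24.7 and 22.7, overlapping), Smurf1 and Smurf2 (12.2 and 11.8, overlapping), Smad3 and Smad5 (overlapping) and, lowest in each library, Smad1. In deficient aTreg, Skil ranked 1 and Ski 2 in each library (62.9 and 52.6 FPKM), clear of Smad7 in rank 3 (31.8) and Smad4 in rank 4 (25.7). Smad3 went from rank 8 in each WT library to rank 10, the lowest, in each deficient one, below Smad5 and Smad1, although its range overlapped that of its neighbour Smad1.

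Within both groups, replicate 1 held the highest or lowest value of several members. In WT, replicate 1 had the highest Skil, Ski, Smad7 and Smurf2 and the lowest Smad1, Smad2, Smad3 and Smad5. In deficient aTreg, replicate 1 again had the highest Skil, Ski and Smad7 and the lowest Smad1, Smad2, Smad3 and Smad5, and also the lowest Smurf1 and Smurf2. That deficient library is the one with low mitochondrial transcripts. WT replicate 1 had mitochondrial transcripts at the WT mean (0.00 on the log2 scale). The part of RNA quality in these levels was not tested.

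Among 101 other measured genes of the pathway, 79 were tested, and 3 rose and 1 fell (5.06%, beside the 1.07% of all genes given above). The lists were drawn up with earlier results of these data known, so such shares cannot be read as enrichment of the pathway. Of 10 tested receptor genes, Tgfbr1, the type I receptor that phosphorylates SMAD2 and SMAD3, rose from 8.83, 9.02 and 7.95 FPKM to 20.7, 24.95 and 22.5 (log2 fold change 1.30, SE 0.105, limma adjusted p = 0.0116). Acvrl1, the type I receptor ALK1, fell from 8.87, 6.12 and 7.83 to 3.46, 3.47 and 3.12 FPKM (log2 fold change -0.97, SE 0.143, limma adjusted p = 0.0477). Ldlrad4, a membrane protein that TGF-beta induces and that keeps SMAD2 and SMAD3 from the receptor, rose from 12.6, 8.08 and 8.18 to 22.0, 25.7 and 26.3 FPKM (log2 fold change 1.29, SE 0.186, limma adjusted p = 0.0450). Rgs16, a regulator of G protein signalling placed in the list of TGF-beta and BMP responsive genes, rose from 7.35, 7.65 and 5.10 to 34.9, 29.4 and 31.0 FPKM (log2 fold change 2.10, SE 0.162, limma adjusted p = 0.00948). The call of Rgs16 held whichever library was left out. That of Tgfbr1 was lost without WT replicate 2 (limma adjusted p = 0.0582), WT replicate 3 (0.0711) or BMPR1a-deficient replicate 3 (0.0592). Ldlrad4 passed only without WT replicate 1 (limma adjusted p = 0.0288) among these fits, with 0.0615 to 0.205 in the others. Acvrl1 passed in none of them (0.0705 to 0.237). Over the 20 alternatives the calls held in 19 for Rgs16, 16 for Tgfbr1, 9 for Ldlrad4 and 6 for Acvrl1, all 4 with an unchanged sign.

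Of 15 tested genes in the list of TGF-beta and BMP responsive genes (members left out), 2 rose (Ldlrad4 and Rgs16), 11 had positive fold changes and the median log2 fold change was 0.25, against 0.04 over all genes. Of the positive genes not past the threshold, Itgae (2.90, limma adjusted p = 0.0709) and Pmepa1 (0.87, 0.151) had groups apart. The genes with negative log2 fold changes were Id2 (-0.75), Junb (-0.46, groups apart), Tgfbi (-0.32) and Id3 (-0.28), none past the threshold. The list pools genes of both branches, so its median describes neither branch alone. It was also not split by the direction in which each gene responds. The 13 tested ubiquitin ligases and deubiquitinases had 0 past the threshold and a median of -0.04. Usp11, a deubiquitinase that acts on type I TGF-beta receptors, was at 3.99, 3.53 and 3.94 FPKM in WT and 5.93, 6.08 and 7.04 in deficient cells (limma adjusted p = 0.0706), and the SMURF relative Wwp2 at 16.4 ± 0.183 and 21.5 ± 2.71 (SD, n = 3, limma adjusted p = 0.220). Neither passed the threshold, though all deficient values of both were above all WT values.

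None of the 11 corepressors and deacetylases passed, with 9 positive and a median of 0.17, against a median of 0.04 over all genes. The share of positive fold changes over all genes tested was not computed for this or the other lists. With median scaling the median over all genes was -0.0057, so counts of positive genes can shift with the scaling. Sin3a, a scaffold for histone deacetylases that SKI binds, was at 26.9 ± 0.985 FPKM in WT and 35.9 ± 1.48 in deficient aTreg (limma adjusted p = 0.108), and Hdac1 at 115 ± 7.04 and 133 ± 5.46 (SD, n = 3, limma adjusted p = 0.377). The 13 coactivators and DNA-binding partners had 0 past the threshold and a median of 0.02, with Sp1 at 23.2 ± 1.496 and 27.0 ± 1.31 FPKM (SD, n = 3, limma adjusted p = 0.359) and Zeb1 at 14.8 ± 2.43 and 11.4 ± 1.53 (0.375). The 9 phosphatases and kinases had 0 past the threshold and a median of 0.06. Map3k7, the kinase TAK1 of the SMAD-independent branch, was at 26.9, 32.9 and 27.6 FPKM in WT and 42.8, 35.4 and 41.0 in deficient aTreg, where limma gave an adjusted p of 0.194. The phosphatase gene Ctdsp2 was at 64.6, 59.8 and 68.6 FPKM against 36.7, 57.2 and 56.1, with its lowest value in BMPR1a-deficient replicate 1 (adjusted p of 0.40 in limma). The 11 adaptors, retention and export proteins had a median of 0.07, with Ldlrad4 the 1 gene past the threshold.

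**Figure D4:**
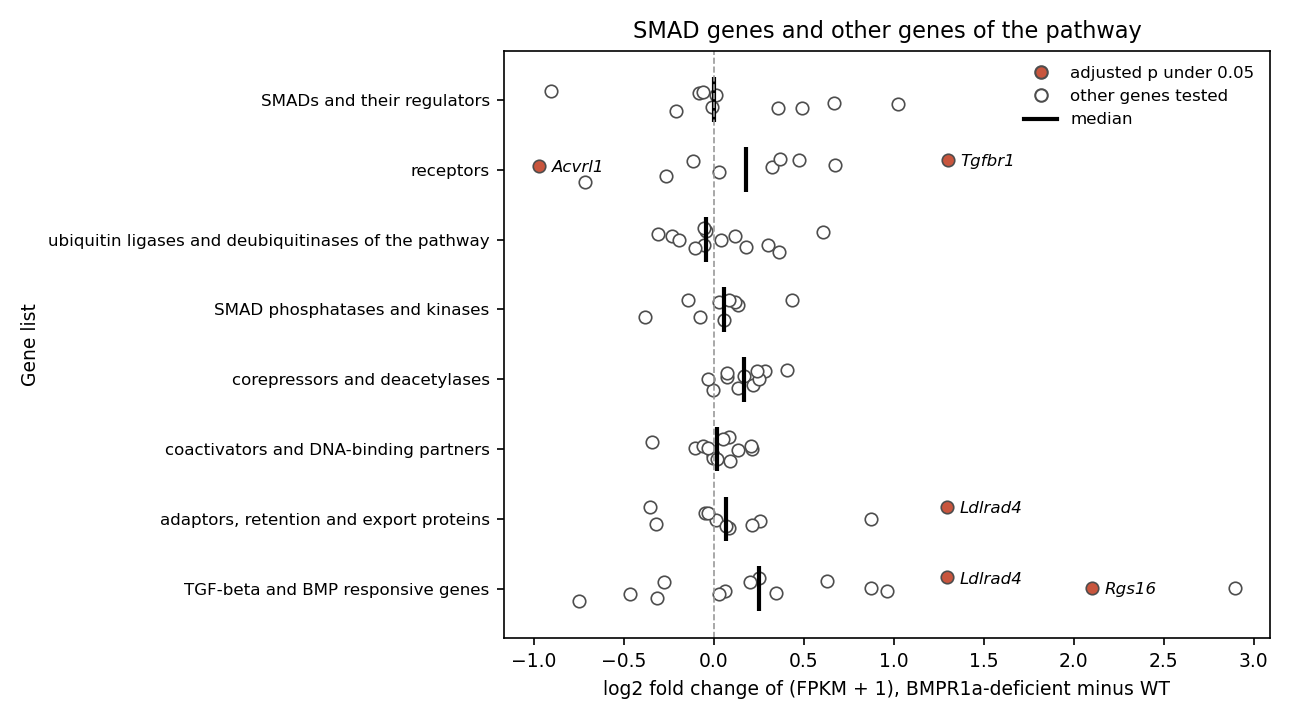
Log2 fold change of FPKM + 1, BMPR1a-deficient minus WT, for each tested gene, by list, with filled points for an adjusted p under 0.05 in limma and a bar at each median. The SMAD genes and their regulators spread from -0.91 to 1.02 with no filled point, and Rgs16, Tgfbr1, Ldlrad4 and Acvrl1 are the filled genes of the other lists.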

How the data were processed

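RNA was measured in 3 WT and 3 BMPR1a-deficient aTreg libraries. The authors deposited FPKM values, 1 column per library, and TopHat2, Cufflinks and Cuffdiff with build GRCm38.p4 are named per the submitters' processing notes. The sources used here give no versions, settings, annotation or strand handling. Symbols and positions came from GENCODE M21 (GRCm38), which matched 24876 of 25759 identifiers (96.6%). In it, no exon of a member overlapped an exon of another gene of the table.

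The test was limma 3.58.1 (R 4.3.3), fitted to log2(FPKM + 1) for genes whose mean was at least 1 FPKM, eBayes with trend, two-sided, with Benjamini-Hochberg adjustment over all 13413 genes, and the code was checked on simulated data. This scale understates the change of low genes. Ratios within a library were compared by exact permutation. Depth was estimated from 4318 genes whose longest transcript spans all their exons, within a set range, and is approximate.

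The members and lists were chosen with earlier results of these data known. Named genes are the members, Bmpr1a, up to 3 genes past the threshold in each of 8 pathway lists (or 2 with the smallest p as values), and the 3 genes most like the member with the smallest p. The 20 alternatives varied pseudocount, filter, scaling, eBayes settings, weights, replicate block, biotypes and libraries.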

Additional observations from a re-analysis of the deposited data

How the results depend on the processing

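No pairing of same-numbered libraries is stated, so the replicate block was used only as an alternative. Deviations of same-numbered libraries from their group means had r = 0.01, 0.06 and 0.05 over the genes tested, which cannot exclude pairing. Among the members, replicate 1 held the same extremes in both groups for several genes, as given above. The block lowered the SE of Smad3 from 0.229 to 0.107 and of Skil from 0.155 to 0.106. It also lowered the SE of Smad1, Smad2, Smad5 (0.219 to 0.153), Smad7 (0.149 to 0.101) and Ski. It raised the SE of Smad4, Smurf1 and Smurf2 (0.156 to 0.174 for Smurf2). With a replicate block 10 genes passed, 0 members and 0 other pathway genes (limma adjusted p = 0.0648 for Rgs16, 0.0878 for Tgfbr1, 0.149 for Acvrl1 and 0.166 for Ldlrad4). The number of genes past the threshold was 143, and it was 1240 with array weights, 296 with protein-coding genes only and 22 to 231 when a library was left out (62, 25 and 22 without WT replicates 1, 2 and 3, and 231, 57 and 27 without BMPR1a-deficient replicates 1, 2 and 3). Of the 143, 69.9% were higher, against 58.6%, 54.5% and 55.7% with upper-quartile, median and quantile scaling, 50% with the block and 59.6% without BMPR1a-deficient replicate 2. The 0 members past the threshold became 4 with array weights (Skil, Ski and Smurf2 higher, Smad3 lower), 1 with a pseudocount of 0.1, robust eBayes or protein-coding genes only (Skil each time), and 0 to 1 when a library was left out. The 4 other pathway genes became 13 with array weights, 7 with protein-coding genes only, 2 with a filter at 0.1 FPKM and with upper-quartile, median or quantile scaling, and 1 to 4 when a library was left out.

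Members near 0 turned sign. Smad2 was 0.0429 with equal protein-coding sums and 0.131 with array weights, Smad5 was 0.146 with array weights, and Smurf1 was -0.0180, -0.0359 and -0.0321 with upper-quartile, median and quantile scaling. With a library left out, Smad1 ranged from -0.157 to 0.00256, Smad2 from -0.0938 to 0.0933, Smad5 from -0.242 to 0.147, Smurf1 from -0.0742 to 0.104 and the log2 difference of the Smad5 to Smad1 ratio from -0.163 to 0.166. Skil, Ski, Smad3, Smad4, Smad7 and Smurf2 kept their sign in all 20 alternatives, and the other 5 ratios in all 8 of theirs. The cause of these shifts was not tested. FPKM hold no counts, and 3 libraries a group limit every interval.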

Other observations

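Skil, the member with the smallest p, was set against every tested gene over the 6 libraries, which fall into the 2 groups. Because Skil differed between the groups, any gene with a clear difference of the same sign gets a high r. The r values thus largely repeat the group difference and show no separate link to Skil. The 3 named genes with the highest Pearson r of log2(FPKM + 1) were Pik3cg (r = 0.996), Cx3cr1 (r = 0.996) and Zbtb5 (r = 0.994). Of the 13413 genes tested, 223 reached 0.95. Cx3cr1 passed the threshold between groups (limma adjusted p = 0.0191), and Pik3cg (0.0997) and Zbtb5 (0.148) did not. Pik3cg, a catalytic subunit of phosphoinositide 3-kinase, was at 12.7, 10.9 and 11.2 FPKM in WT and 16.7, 15.6 and 16.2 in BMPR1a-deficient cells. Cx3cr1, the receptor for fractalkine, was at 1.30, 0.517 and 0.468 FPKM in WT and 7.46, 5.5045 and 5.99 in deficient cells. Zbtb5, a zinc finger protein gene, was at 4.63, 3.97 and 4.23 FPKM and at 6.35, 5.73 and 5.86.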
